A study of Mus musculus with 12 samples.

Results

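The genes described here are 39 genes of the cell division cycle, picked by symbol. Of these, 12 act in late G1 and S phase, when a cell commits to division and copies its DNA, and 27 act from G2 through mitosis and cytokinesis. All 39 were found among the 17379 genes of the deposited table, and all 39 were among the 13849 genes that passed the filter on low counts. RNA of C57BL mouse hearts, dissected at 6 months of age, was sequenced in 12 libraries, 3 in each of 4 groups. Nontransgenic mice (genotype C57BL/WT) carried neither alteration. The MYBPC3 deletion group was homozygous for a deletion of 25 bp in MYBPC3, the gene of cardiac myosin-binding protein C. The HRC variant group was heterozygous for the S96A form of the histidine-rich calcium-binding protein, and compound mice carried both alterations. The nontransgenic and deletion groups each held 2 males (replicates 1 and 2) and 1 female (replicate 3), whereas the HRC variant and compound groups were all female, so sex was a term of the model. The labels do not tell how the alleles were made or in which cells they act. Nor do they name an animal for each library, and the p-values then measure the spread between these libraries, which may be technical.

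Dividing cells switch on 2 waves of transcripts. The first, driven largely by E2F factors at the G1/S border, supplies cyclin E, the MCM helicase that unwinds DNA, the sliding clamp PCNA and the enzymes that make deoxynucleotides. The second, driven by the MuvB complex together with MYBL2 and FOXM1 in G2, supplies cyclins A and B, mitotic kinases, kinetochore proteins and the motors of the spindle. In non-dividing cells the DREAM complex holds both waves down through E2F sites and through the cell cycle homology region (CHR), a short element near the start of many mitotic genes. Adult heart muscle cells rarely divide. Cycling cells in an adult heart are mostly non-muscle cells, such as endothelial cells, fibroblasts and blood-derived cells. A transcript counted in whole heart RNA can come from any of them, and in bulk tissue fewer cells of a type and less RNA per cell cannot be told apart.

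The promoters of the most abundant members are shown because the cell cycle acts on such genes through short promoter elements. For Pcna and Mcm7 in the S-phase class, and for Cenpf and Mki67 in the mitotic class, the 250 bases before the transcription start are given 5′ to 3′ on the strand of the gene (RefSeq, GRCm38.p6). These members had the highest mean level of their class in CPM, counts scaled to a common library total. Capitals mark matches on either strand to TTTGAA (the CHR), TTTAAA (a variant of it), CCAAT (bound by NF-Y) and the E2F letters TTTGGCGC, TTTCCCGC, TTTGCCGC and TTTCGCGC. The windows are chr2:132253181-132253430 for Pcna, chr5:138171267-138171516 for Mcm7, chr1:189688087-189688336 for Cenpf and chr7:135716380-135716629 for Mki67, all on the minus strand. Mcm7 has 2 starts in the RefSeq table, of which 1 is shown.
Pcna: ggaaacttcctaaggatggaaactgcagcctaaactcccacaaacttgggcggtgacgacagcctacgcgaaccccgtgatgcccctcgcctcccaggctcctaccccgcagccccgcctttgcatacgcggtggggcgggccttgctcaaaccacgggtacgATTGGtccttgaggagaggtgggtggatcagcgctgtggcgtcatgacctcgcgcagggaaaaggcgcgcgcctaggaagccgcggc
Mcm7: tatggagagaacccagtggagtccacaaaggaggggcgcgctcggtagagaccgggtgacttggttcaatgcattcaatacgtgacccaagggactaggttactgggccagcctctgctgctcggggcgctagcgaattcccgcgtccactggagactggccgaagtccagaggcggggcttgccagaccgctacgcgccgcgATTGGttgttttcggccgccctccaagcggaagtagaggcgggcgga
Cenpf: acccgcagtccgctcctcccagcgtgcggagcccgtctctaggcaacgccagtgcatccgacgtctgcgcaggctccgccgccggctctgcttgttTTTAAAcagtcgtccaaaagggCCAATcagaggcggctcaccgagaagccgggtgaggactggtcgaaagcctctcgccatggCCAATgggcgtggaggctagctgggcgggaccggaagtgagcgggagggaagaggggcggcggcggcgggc
Mki67: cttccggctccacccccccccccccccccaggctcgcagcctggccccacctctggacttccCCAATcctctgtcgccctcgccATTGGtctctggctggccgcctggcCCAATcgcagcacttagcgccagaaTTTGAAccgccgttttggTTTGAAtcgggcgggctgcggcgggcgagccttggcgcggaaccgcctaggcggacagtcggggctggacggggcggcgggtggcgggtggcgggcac

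In these stretches the Mki67 promoter holds 2 CHR matches and 3 CCAAT matches, whereas those of Pcna and Mcm7 hold 1 CCAAT match each and no CHR match. None of the 4 stretches holds a match to the E2F letters. The Cenpf stretch holds 1 match to the CHR variant and 2 to CCAAT, and its 1 match to TTTGAA lies in the 50 bases after the start, which are not shown. RefSeq windows of 300 bases (250 before and 50 after the start) were matched by gene identifier for 32 of the 39 members. These were 10 of the S-phase class and 22 of the mitotic class. TTTGAA was present in 18 of 23 mitotic windows (78.3%) and in 1 of 11 S-phase windows (9.09%), against 17.9% of the 32851 windows of all genes. The E2F letters were present in 4 of 11 S-phase windows (36.4%), 1 of 23 mitotic windows (4.35%) and 2.26% of all windows. CCAAT was common to both classes, with 87.0% of mitotic, 72.7% of S-phase and 37.4% of all windows. TTTAAA (30.4%, 27.3% and 13.2%) and the GC box GGGCGG, which is not marked by capitals (82.6%, 90.9% and 35.7%), also differed little between the classes. A match is a description of the letters and no evidence of binding.

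Library totals ran from 15615182 to 20581197 counts. Heart muscle markers summed to between 79200 and 115000 CPM in each library, so the tissue label held in all 12, and 4 Y-linked genes followed the sex labels in all 12. Markers of atrial muscle, by contrast, ranged from 926 to 11100 CPM. They were lowest in HRC variant replicate 3 and the compound libraries (926 to 1410 CPM) and highest in nontransgenic replicate 2 and HRC variant replicate 1 (11100 and 11000 CPM). Nontransgenic replicate 2 and MYBPC3 deletion replicate 2, labelled 1B and 2B, stood apart by their lymphocyte markers. The 12 B-cell markers summed to 78.7 and 125 CPM in them, against 7.60 to 16.5 CPM in the other 10 libraries, and the 15 T-cell markers to 23.9 and 31.1 CPM, against 12.7 to 15.5 CPM. Both are male, as are replicates 1 of the same groups.

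The S-phase members were the better measured class and the steadier one. Per transcript length, in the authors' FPKM, Pcna, the sliding clamp of the replication fork, stood first with 30.2 ± 2.41 FPKM (SD, n = 12). Mcm7, a helicase subunit, followed with 6.01 ± 0.680 FPKM, and Cenpf, a kinetochore protein, with 3.73 ± 1.76 FPKM. At the other end Cenpe, a kinetochore motor, had 0.118 ± 0.0620 FPKM and Bub1, a checkpoint kinase, 0.0840 ± 0.0670 FPKM. Positions 4 to 7 belonged to Mcm2 (3.66 ± 0.593 FPKM), Mcm6 (3.12 ± 0.485 FPKM), Mcm4 (2.77 ± 0.370 FPKM) and Mcm3 (2.59 ± 0.493 FPKM), each within 1 SD of its neighbour. The mean CPM of a member over 12 libraries ran from 1.69 to 36.1 in the S-phase class (median 6.14) and from 0.347 to 38.9 in the mitotic class (median 1.60). The lowest members rested on few reads: the mean count per library had a median of 112 in the S-phase class and 29.4 in the mitotic class, and Bub1 had 6.25.

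Over the 12 libraries the coefficient of variation had a median of 19.2% for S-phase members and 44.4% for mitotic members. Counting error alone gives medians of 9.59% and 18.4%. The observed value was more than 2 times the counting value in 5 of 12 S-phase members and in 20 of 27 mitotic members. Pcna (gene 18538; chromosome 2, 132239492 to 132253217) was the steadiest, with 36.1, 32.6 and 31.8 CPM in nontransgenic hearts, 38.0, 38.8 and 36.8 CPM with the deletion, 36.7, 32.2 and 36.6 CPM with the HRC variant and 36.8, 40.8 and 35.7 CPM in compound hearts. All 12 values lay within 1.28-fold. Mcm2, another helicase subunit, had 10.7, 14.2 and 10.7 CPM in nontransgenic hearts, 10.2, 13.2 and 10.6 CPM with the deletion, 12.9, 11.5 and 11.3 CPM with the HRC variant and 12.7, 10.9 and 16.4 CPM in compound hearts, with overlap between all groups.

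Among the S-phase members E2f1 (coefficient of variation 46.8%) and Ccne2 (39.4%) varied most, followed by the helicase subunit Mcm5 (33.2%) and Ccne1 (32.3%). Ccne2, the second E-type cyclin, was lowest in nontransgenic replicate 1 (0.357 CPM) and highest in HRC variant replicate 2 (3.19 CPM). E2f1, the factor of the first wave, ran from 0.277 CPM in HRC variant replicate 3 to 3.22 CPM in HRC variant replicate 1, so its whole range over 12 libraries lay inside 1 group. Among the mitotic members Kif11, the motor that pushes spindle poles apart, was the steadiest (coefficient of variation 19.7%, 1.02 to 1.90 CPM). Ccnb1, a B-type cyclin, was the least steady (129%), with 1.80 CPM in nontransgenic replicate 2, 3.62 CPM in MYBPC3 deletion replicate 2 and at most 0.841 CPM elsewhere. Both exceptions are the libraries with high lymphocyte markers.

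**Figure D1:**
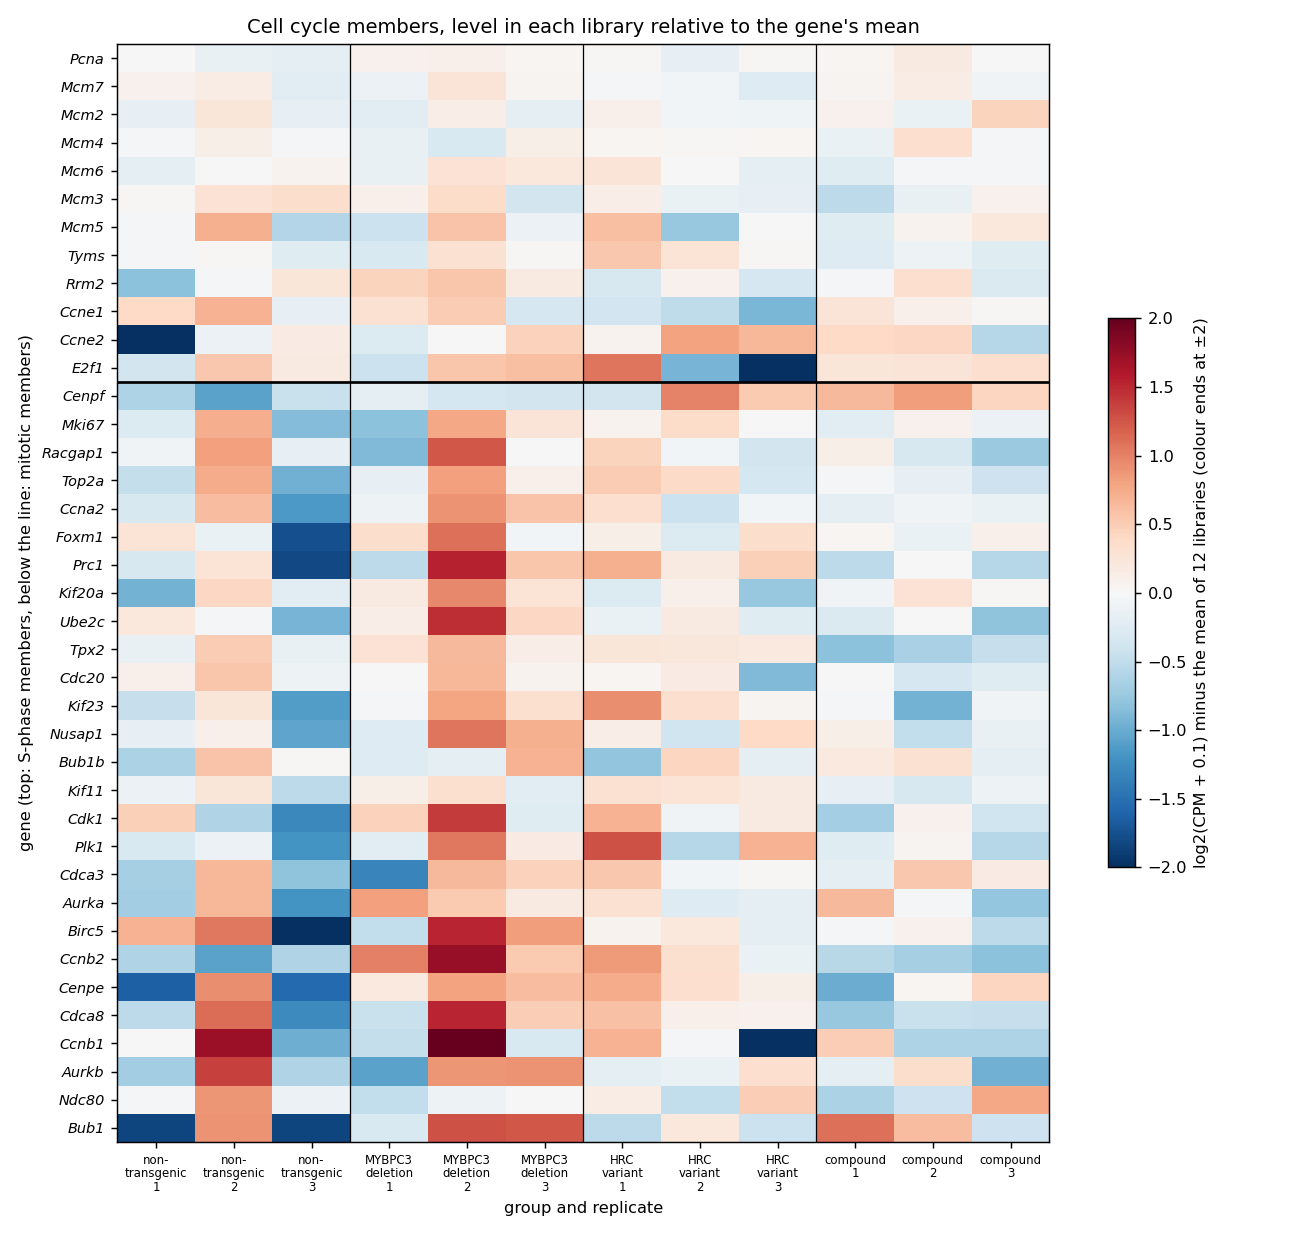
Level of the 39 genes (rows, S-phase members above the line, ordered by mean CPM) in the 12 libraries (columns, 3 per group), as log2 of CPM plus 0.1 less the mean of the gene, with the colour ending at 2 in either direction. MYBPC3 deletion replicate 2 is high (red) for most mitotic rows and nontransgenic replicate 3 low (blue), while the S-phase rows are pale apart from single dark blue cells, Ccne2 in nontransgenic replicate 1 and E2f1 in HRC variant replicate 3.

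The mitotic members shared their high and low libraries. MYBPC3 deletion replicate 2 was the highest of the 12 libraries for 18 of 27 mitotic members (66.7%), against 16.7% of all tested genes, and for 4 of 12 S-phase members. Nontransgenic replicate 3, the female of that group, was the lowest for 14 of 27 mitotic members (51.9%), against 7.82% of all genes, and for 1 of 12 S-phase members. Mki67 (gene 17345; chromosome 7, 135689788 to 135716409), whose product coats mitotic chromosomes, had 4.82, 9.81 and 3.17 CPM in nontransgenic hearts, 3.28, 10.1 and 7.07 CPM with the deletion, 6.18, 7.59 and 5.88 CPM with the HRC variant and 5.03, 6.23 and 5.42 CPM in compound hearts. Its 2 highest libraries were those labelled 1B and 2B, and its lowest was nontransgenic replicate 3. Top2a, the topoisomerase that untangles sister chromatids, had 2.03, 4.83 and 1.41 CPM, then 2.53, 5.14 and 3.08 CPM, then 4.11, 3.77 and 2.22 CPM, and 2.76, 2.53 and 2.12 CPM, in the same order of groups. It had the same 2 highest libraries and the same lowest.

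In nontransgenic replicate 2 the level of a mitotic member was a median of 2.05 times the mean of the other 2 nontransgenic libraries, above 1 in 23 of the 26 members for which the ratio could be formed. S-phase members had a median of 1.15 (11 of 12 above 1), and all tested genes 0.998 (49.4% above 1). The checkpoint kinase Bub1 was left out, since it had 0 counts in both other libraries and 0.565 CPM in replicate 2. In MYBPC3 deletion replicate 2 the median was 1.73 for mitotic members (24 of 27 above 1), 1.25 for S-phase members (10 of 12) and 0.983 for all genes (48.0%). The largest ratios in nontransgenic replicate 2 were those of Cenpe (8.25 times, from low counts), Ccnb1 (5.36 times), and Aurkb and Cdca8, the kinase and a scaffold subunit of the chromosomal passenger complex (4.81 and 4.71 times). In MYBPC3 deletion replicate 2 Ccnb1 stood at 10.5 times and Racgap1, a cytokinesis regulator, at 3.18 times. Not all mitotic members followed: in nontransgenic replicate 2 Ccnb2, Cdk1 and Cenpf stood at 0.671, 0.711 and 0.688 times.

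The B-cell markers in these libraries included Ms4a1 (CD20), with 8.63 and 11.7 CPM in 1B and 2B against at most 1.10 CPM elsewhere, and Cd79a, a chain of the B-cell receptor, with 17.7 and 42.0 CPM against at most 3.60 CPM. All 12 markers of that list were higher in both libraries than in any of the other 10. Jchain, made by plasma cells, had 42.9 and 43.7 CPM against at most 5.89 CPM. Of the same list, Mzb1 and Derl3 were also higher in both libraries than in any other. Sdc1 (8.42 and 9.45 CPM against at most 10.4 CPM), Prdm1, Xbp1 and Tnfrsf17 were not. Of the T-cell list, Cd3e had 1.13 and 1.08 CPM against at most 0.499 CPM, while Themis was at 0 in 8 of 12 libraries. Markers of neutrophils and marrow summed to 27.6 CPM in MYBPC3 deletion replicate 2 and at most 3.02 CPM elsewhere. Of the 8 genes in that sum, only 2 passed the filter on low counts. Their median log2 level, relative to each gene's mean, was 0.67 in MYBPC3 deletion replicate 2 and 1.36 in HRC variant replicate 1. Ptcra, which marks immature T cells, was at most 0.292 CPM in any library. The 5 thymocyte markers found, Ptcra among them, summed to 10.4 CPM in 1B, 5.52 CPM in 2B and 3.72 to 8.15 CPM elsewhere. How much of the mitotic level comes from these cells was not tested.

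Summed over the 26 mitotic members other than Cenpf, nontransgenic hearts had 35.7, 62.2 and 23.2 CPM, and deletion hearts 38.4, 88.5 and 53.0 CPM. HRC variant hearts had 53.7, 45.4 and 41.8 CPM and compound hearts 38.4, 39.6 and 34.9 CPM. By this sum the libraries labelled 1B and 2B were the highest of all 12. With Cenpf included they summed to 79.0 and 116 CPM, where 1B lay below the median of the 12 (81.8 CPM) and HRC variant replicate 2 also had 116 CPM. The other 10 ran from 23.2 to 53.7 CPM without Cenpf and from 49.2 to 116 CPM with it. Nontransgenic replicate 3 was the lowest by either sum. The S-phase members summed to 98.4 to 113 CPM in nontransgenic hearts, 101 to 120 CPM with the deletion, 98.9 to 115 CPM with the HRC variant and 102 to 114 CPM in compound hearts, with all groups overlapping. Without Pcna, the most abundant of them, the S-phase members too were highest in 1B and 2B, with 80.2 and 81.6 CPM against 63.1 to 78.1 CPM in the other 10 libraries. Cenpf is left out of the mitotic sum because it alone made up between 16.8 and 70.9 CPM and had another pattern, given further on.

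**Figure D2:**
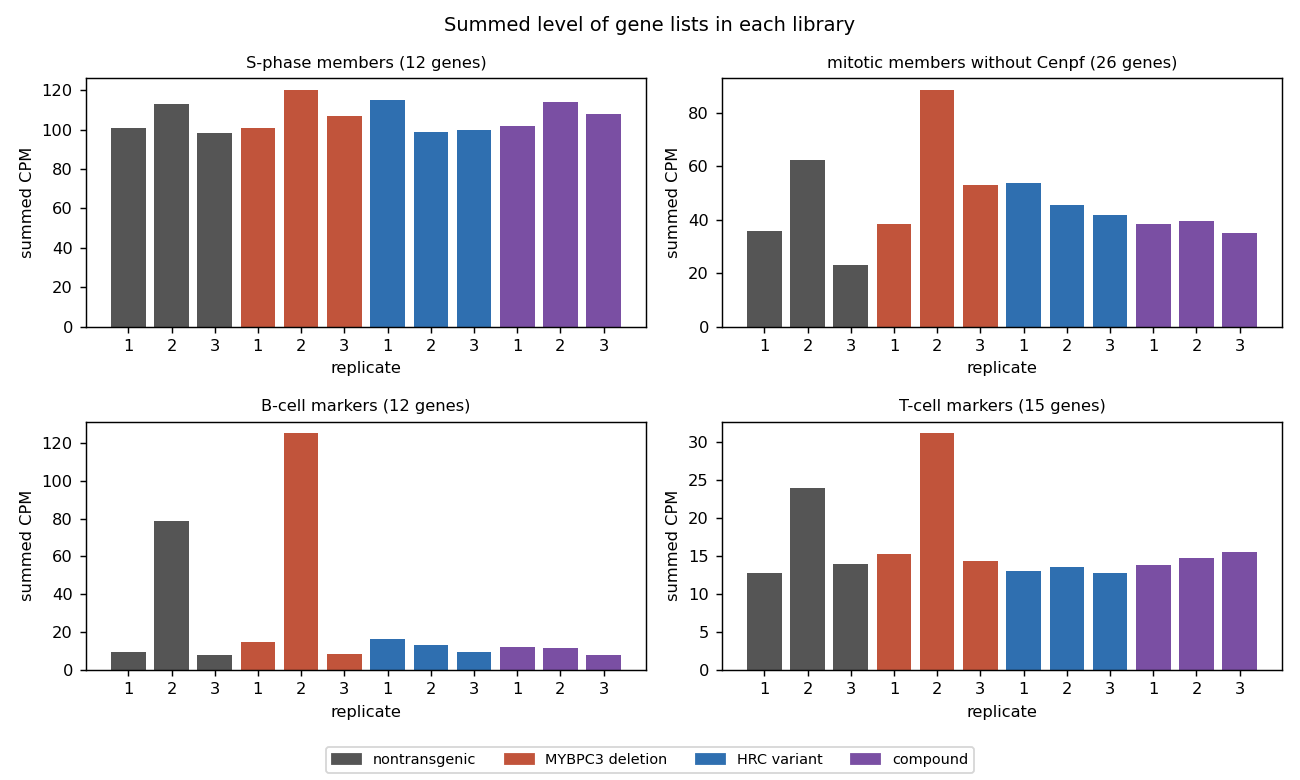
Summed CPM in each library (bars, grouped by colour, replicates 1 to 3) for the S-phase members, the mitotic members without Cenpf, and the B-cell and T-cell markers, each axis starting at 0. In nontransgenic replicate 2 and MYBPC3 deletion replicate 2 the mitotic sums (62.2 and 88.5 CPM) and the B-cell sums (78.7 and 125 CPM) are the highest of the 12, while the S-phase sums, to which Pcna alone adds 31.8 to 40.8 CPM, stay between 98.4 and 120 CPM.

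The first comparison asked how deletion hearts differ from nontransgenic hearts. The mitotic members had positive fitted differences almost throughout, 26 of 27, with a median log2 fold change of 0.81, and the S-phase members did not, with 7 of 12 positive and a median of 0.09. All tested genes had a median of 0.00 with 49.2% positive. No member passed edgeR's quasi-likelihood test over all genes, which called 0% of genes in this comparison. DESeq2 called 0.595% of genes here, among them 1 member, Ccnb2. At an unadjusted p under 0.05, a level that 2.94% of all genes reached in the higher direction, edgeR had 5 members, all mitotic and all higher: Ccnb2, Foxm1, Prc1, Ube2c and Cdk1. No member was lower at that level, which 5.22% of all genes were.

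Ccnb2 (gene 12442; chromosome 9, 70407689 to 70421554), a B-type cyclin that activates CDK1 at the entry into mitosis, had 0.536, 0.359 and 0.536 CPM in nontransgenic hearts and 1.83, 3.11 and 1.28 CPM with the deletion. The deletion libraries were higher in both sexes, and the groups did not overlap. Its log2 fold change was 2.05 (SE 0.53; adjusted p = 0.346 by edgeR's quasi-likelihood test and 0.0493 by DESeq2), or 1.49 without the libraries labelled 1B and 2B. The other members whose groups did not overlap, Pcna and Cenpf, were also higher, which 4.9% of all genes were, and no member's groups lay apart in the lower direction (5.5% of all genes). Their differences were small beside that of Ccnb2: 0.18 (SE 0.11) for Pcna, while Cenpf had 23.0, 16.8 and 26.0 CPM in nontransgenic hearts and 30.9, 27.7 and 27.5 CPM with the deletion.

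Cdk1, the kinase that the B-type cyclins activate, had 1.73, 0.770 and 0.438 CPM in nontransgenic hearts and 1.71, 3.36 and 1.01 CPM with the deletion. The groups overlapped, and the fitted log2 fold change was 1.07 (SE 0.49), or 0.53 without 1B and 2B. Foxm1, the transcription factor of the second wave, had 3.10, 2.31 and 0.682 CPM and 3.28, 5.58 and 2.44 CPM, with a log2 fold change of 1.04 (SE 0.35; adjusted p = 0.477 by edgeR's quasi-likelihood test). Nontransgenic replicate 3 was the low library and MYBPC3 deletion replicate 2 the high one in both genes. Prc1, which bundles microtubules in the spindle midzone, gave 1.36 (SE 0.52) and Ube2c, the ubiquitin-conjugating enzyme that helps destroy cyclin B, 1.06 (SE 0.42). The usual markers of dividing cells were not among the members at an unadjusted p under 0.05. Their log2 fold change was 0.29 (SE 0.40) for Mki67, 0.46 (SE 0.41) for Top2a and -0.07 (SE 0.19) for Mcm2.

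Leaving out both 1B and 2B left the mitotic median at 0.78, with 4 members at an unadjusted p under 0.05. The median was 0.39 without MYBPC3 deletion replicate 2 alone and 0.40 without nontransgenic replicate 3 or MYBPC3 deletion replicate 3. The number of members under 0.05 went from 5 to 1, 2 and 2 without these libraries, to 11 without MYBPC3 deletion replicate 1 and to 12 without nontransgenic replicate 2.

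**Figure D3:**
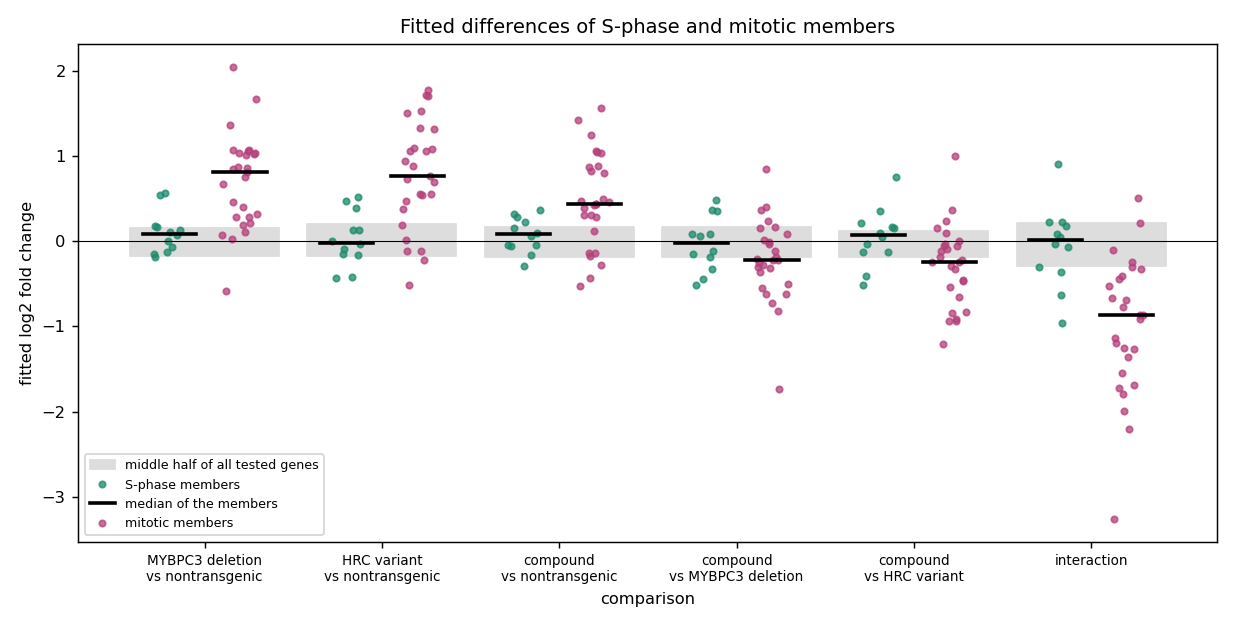
Fitted log2 fold change of each S-phase member (green) and mitotic member (magenta) in the 5 comparisons of groups and in the interaction, with the median of each class as a black line and the range between the quartiles of all tested genes in grey. The mitotic medians lie at 0.81, 0.77 and 0.44 against nontransgenic hearts and at -0.22, -0.24 and -0.87 in the remaining columns, while the S-phase medians lie between -0.03 and 0.09.

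The comparison of HRC variant hearts with nontransgenic hearts had 23 of 27 mitotic members positive with a median of 0.77, and 6 of 12 S-phase members with a median of -0.01. This comparison shares its nontransgenic libraries with the previous one. No member passed edgeR, which called 0% of genes, nor DESeq2, which called 0.181%. At an unadjusted p under 0.05 there were 7 members, all mitotic and higher (3.29% of all genes): Foxm1, Cenpf, Cdk1, Prc1, Plk1, Ccnb2 and Kif23. No member was lower (2.95% of all genes). Foxm1 had 2.77, 2.09 and 3.27 CPM in HRC variant hearts, inside the range of the nontransgenic libraries except for the highest, and its fitted log2 fold change was 1.51 (SE 0.47; adjusted p = 0.641 by edgeR's quasi-likelihood test). Cdk1 had 2.03, 1.15 and 1.39 CPM and a log2 fold change of 1.72 (SE 0.64). With no sex term these were 0.42 for Foxm1 and 0.65 for Cdk1.

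Plk1, a kinase that acts throughout mitosis, had 0.893, 1.03 and 0.438 CPM in nontransgenic hearts and 2.87, 0.733 and 1.89 CPM with the HRC variant, and gave 1.77 (SE 0.73). Prc1 had 1.67, 2.57 and 0.536 CPM and 3.51, 2.41 and 3.00 CPM, and gave 1.71 (SE 0.69). In both genes the groups overlapped and nontransgenic replicate 3 was the lowest of the 12 libraries. Top2a gave 0.88 (SE 0.53), Mki67 0.54 (SE 0.51), Pcna 0.13 (SE 0.14) and Mcm2 0.13 (SE 0.23). Groups did not overlap for Ccnb2, Cenpf and Tyms, the enzyme that makes thymidylate, all higher (4.18% of all genes), and for Ccne1, the first E-type cyclin, which was lower (3.76% of all genes). Ccnb2 had 1.63, 1.10 and 0.777 CPM, each above the nontransgenic values. Ccne1 had 2.62, 3.24 and 1.75 CPM in nontransgenic hearts and 1.48, 1.36 and 0.999 CPM with the HRC variant.

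The size of these differences rests on how sex is modelled and on 1 library. With no sex term the mitotic median was 0.16 and 3 members had an unadjusted p under 0.05, and without nontransgenic replicate 3, the only nontransgenic female, it was 0.20 with 2 members. The count was 3 without MYBPC3 deletion replicate 2 (median 0.48) and 4 without HRC variant replicate 1. Without 1B and 2B the median was 0.80 with 7 members. Some blood cell markers were also positive in this fit. They were 10 of 12 B-cell markers (median 1.04), 5 of 6 plasma cell markers (0.74) and both tested markers of neutrophils and marrow (1.89). Other lists were not: 4 of 10 T-cell markers (median -0.08), 7 of 14 macrophage (-0.02), 2 of 6 erythroid (-0.34) and 1 of 3 thymocyte markers (-0.18) were positive. The B-cell median was 0.59 in deletion and 0.67 in compound hearts against nontransgenic ones, with 10 and 11 of 12 positive. These medians come from the fit with the sex term. By level, the B-cell sums were 9.47, 78.7 and 7.65 CPM in nontransgenic and 14.9, 125 and 8.56 CPM in deletion hearts. With the HRC variant they were 16.5, 12.9 and 9.27 CPM and in compound hearts 12.0, 11.7 and 7.60 CPM, all below nontransgenic replicate 2. The part of these cells in the mitotic differences was not tested. Among the female libraries alone, Mki67 had 3.17 CPM in the nontransgenic one, 7.07 CPM in the deletion one, 5.88 to 7.59 CPM with the HRC variant and 5.03 to 6.23 CPM in compound hearts.

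Compound hearts against nontransgenic hearts had a mitotic median of 0.44 with 21 of 27 positive, and an S-phase median of 0.08 with 7 of 12 positive. No member passed edgeR (0% of genes) or DESeq2 (0.275%). Cenpf and Foxm1 were the members higher at an unadjusted p under 0.05 (2.14% of all genes), and no member was lower (4.22%). Foxm1 had 2.60, 2.30 and 2.74 CPM in compound hearts, all within the range of the nontransgenic libraries, with means of 2.55 ± 0.224 against 2.03 ± 1.23 CPM (SD, n = 3). Its fitted log2 fold change was 1.42 (SE 0.47; adjusted p = 0.662 by edgeR's quasi-likelihood test), but 0.33 with no sex term and 0.79 without nontransgenic replicate 3. Aurka, the kinase that matures spindle poles, gave 1.04 (SE 0.73), Cdk1 1.06 (SE 0.64), Top2a 0.43 (SE 0.53), Mki67 0.31 (SE 0.51), Pcna 0.23 (SE 0.14) and Mcm2 0.29 (SE 0.23). Tpx2, which activates Aurora A on the spindle, was the member whose groups did not overlap in the lower direction (10% of all genes), with 1.55, 2.52 and 1.56 CPM in nontransgenic and 0.940, 1.07 and 1.23 CPM in compound hearts. The mitotic median was -0.00 with no sex term and -0.14 without nontransgenic replicate 3, and without 1B and 2B it was 0.54; its sign thus rests on the sex term and on that library. Under 0.05 there was 1 member without nontransgenic replicate 3 and there were 4 without nontransgenic replicate 2.

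**Figure D4:**
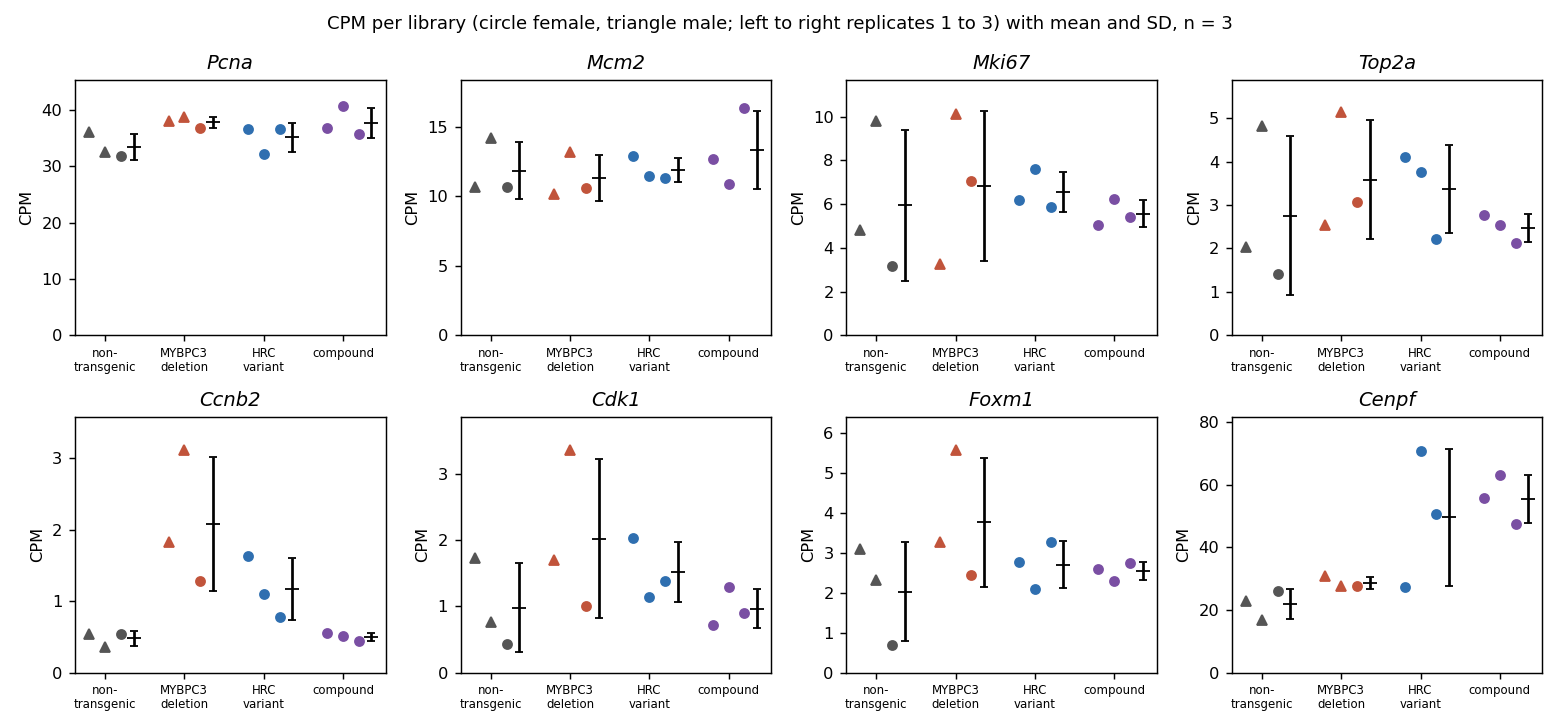
CPM of 8 members in each library (circles female, triangles male, replicates 1 to 3 from left to right) with the group mean and SD (n = 3) in black, every axis starting at 0. Mcm2 overlaps between all groups, Pcna stays between 31.8 and 40.8 CPM, Mki67 and Top2a peak in the libraries labelled 1B and 2B, Ccnb2 is at 0.359 to 0.553 CPM in all nontransgenic and compound libraries and at 0.777 to 3.11 CPM in the others, and Cenpf is high in 2 HRC variant and all compound libraries.

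Adding the HRC variant to the deletion, the compound hearts were lower than deletion hearts in most mitotic members: 8 of 27 were positive, with a median of -0.22, while the S-phase members had 6 of 12 positive and a median of -0.03. No member passed edgeR (0% of genes) or DESeq2 (0.0433%). Ccnb2 was the lower member at an unadjusted p under 0.05 (3.39% of all genes). It had 0.553, 0.505 and 0.447 CPM in compound hearts, below every deletion library and close to the nontransgenic values, with a log2 fold change of -1.73 (SE 0.64; adjusted p = 0.862 by edgeR's quasi-likelihood test). Cenpf was the higher one (2.34% of all genes). Markers of other cells were lower by sign in the same fit. Fibroblasts had a median of -0.55 (0 of 11 positive), macrophages -0.27 (1 of 14) and T cells -0.49 (2 of 10). B-cell markers had 0.34 (9 of 12), though their sums were 14.9, 125 and 8.56 CPM in deletion and 12.0, 11.7 and 7.60 CPM in compound hearts. Fibroblast and macrophage markers were also lower by sign against HRC variant hearts (-0.42 with 0 of 11 positive and -0.19 with 2 of 14), and their part in the mitotic differences was not tested.

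Groups did not overlap for 5 lower members, Ccnb2, Tpx2, Kif23, Cdca8 and Ube2c (13.7% of all genes), and 1 higher member, Cenpf (11.5%). Tpx2 had 2.15, 2.79 and 1.91 CPM with the deletion, and its difference was -0.82 (SE 0.43). Kif23, a midzone motor of cytokinesis, had 1.58, 2.85 and 2.02 CPM with the deletion and 1.55, 0.786 and 1.51 CPM in compound hearts. Mcm2 gave 0.36 (SE 0.23), Mcm6 -0.33 (SE 0.22), Pcna 0.06 (SE 0.14), Top2a -0.03 (SE 0.49) and Mki67 0.02 (SE 0.47). The sexes are unequal in this comparison: with no sex term the mitotic median was -0.67, and without the deletion female, replicate 3, it was 0.53. The count of 2 members under 0.05 went to 1 without MYBPC3 deletion replicate 2, nontransgenic replicate 1 or 3, or compound replicate 1 or 2.

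Compound and HRC variant hearts were all female. The mitotic members had a median of -0.24 with 6 of 27 positive, and the S-phase members a median of 0.08 with 7 of 12 positive. No member passed edgeR (0% of genes) or DESeq2 (0.311%). At an unadjusted p under 0.05, Tpx2, Ccnb2 and Tyms were lower (3.91% of all genes) and Ccne1 was higher (2.38%). Tpx2 had 2.08, 2.04 and 2.00 CPM with the HRC variant and 0.940, 1.07 and 1.23 CPM in compound hearts, with little spread in either group. Its log2 fold change was -0.91 (SE 0.36; adjusted p = 0.750 by edgeR's quasi-likelihood test).

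Ccnb2 gave -1.21 (SE 0.52), Tyms -0.51 (SE 0.24), Kif23 -0.83 (SE 0.45) and Ccne1 0.76 (SE 0.33). Tyms had 7.02, 5.81 and 4.88 CPM against 3.98, 4.43 and 4.03 CPM. Ccne1 had 2.38, 2.13 and 2.01 CPM in compound hearts, within the range of the nontransgenic libraries. Groups did not overlap for 7 lower members, namely Tpx2, Ccnb2, Tyms, Kif23, Cdca8, Prc1 and Kif11 (6.22% of all genes), and for Ccne1, which was higher (6.2%). Mki67 (-0.24, SE 0.39), Top2a (-0.45, SE 0.41), Pcna (0.10, SE 0.11) and Mcm2 (0.17, SE 0.19) were not among the members at an unadjusted p under 0.05. The count of members under 0.05 went from 4 to 0 without compound replicate 1 or 2 and to 1 without HRC variant replicate 2 or compound replicate 3.

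The interaction asks whether the log2 difference of compound hearts equals that of both single alterations added up. For the mitotic members it was mostly negative, with 2 of 27 positive and a median of -0.87, and for the S-phase members it was balanced, with 6 of 12 positive and a median of 0.01. No member passed edgeR (0% of genes). DESeq2 called 0.864% of the 5790 genes to which it gave an adjusted p here. Of the members only Cenpf and Pcna were among these genes, and neither was called. At an unadjusted p under 0.05 there were 8 members, all mitotic and negative (4.05% of all genes): Ccnb2, Prc1, Kif23, Foxm1, Cdk1, Plk1, Tpx2 and Ube2c. No member was positive at that level (4.49% of all genes). Ccnb2 is the clearest case by level, with group means of 0.477 ± 0.102 CPM in nontransgenic, 2.07 ± 0.939 CPM in deletion, 1.17 ± 0.432 CPM in HRC variant and 0.502 ± 0.0528 CPM in compound hearts (SD, n = 3). It was thus higher in each single mutant and at the nontransgenic level in compound hearts, and its interaction was -3.26 (SE 0.74; adjusted p = 0.508 by edgeR's quasi-likelihood test). Prc1 gave -2.20 (SE 0.73) and Kif23 -1.69 (SE 0.65). Without 1B and 2B the median was -1.12 with 6 members under 0.05 and Ccnb2 gave -2.69. The count of 8 went to 1 without MYBPC3 deletion replicate 2, to 2 without MYBPC3 deletion replicate 3 or nontransgenic replicate 3, to 4 or 5 without any 1 compound library or HRC variant replicate 1, and to 14 without MYBPC3 deletion replicate 1.

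Cenpf (gene 108000; chromosome 1, 189639350 to 189688105) did not follow the other mitotic members. Its product joins the outer kinetochore in mitosis and also binds microtubules outside of it. It had 23.0, 16.8 and 26.0 CPM in nontransgenic hearts and 30.9, 27.7 and 27.5 CPM with the deletion. It had 27.3, 70.9 and 50.7 CPM with the HRC variant and 55.8, 63.1 and 47.6 CPM in compound hearts. HRC variant replicates 2 and 3 and all compound libraries were above every nontransgenic and deletion library, and HRC variant replicate 1 lay between the nontransgenic and the deletion libraries. Group means were 21.9 ± 4.65, 28.7 ± 1.94, 49.6 ± 21.9 and 55.5 ± 7.75 CPM (SD, n = 3). Its counts were 328 to 1356 per library, so that counting error alone gives a spread of 3.76% at its mean count.

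The log2 fold change of Cenpf was 1.25 in compound against nontransgenic hearts (SE 0.35; adjusted p = 0.614 by edgeR's quasi-likelihood test), where the groups did not overlap (8.79% of all genes). It was 0.85 (SE 0.36) in compound against deletion hearts and 1.08 (SE 0.35) in HRC variant against nontransgenic hearts. Without 1B and 2B these were 1.18, 0.94 and 1.02. The females without the HRC variant, nontransgenic replicate 3 and MYBPC3 deletion replicate 3, had 26.0 and 27.5 CPM. The authors' deposited table lists Cenpf with a log2 fold change of 1.34 (q = 4.43e-09) in compound against nontransgenic hearts, where 0.436% of its genes were higher and 1.99% lower at q under 0.05. It lists 0.97 (q = 2.39e-07) against deletion hearts, where 1.46% were higher. Ccnb2 was the other member in the authors' deposited table at that level, with -2.02 (q = 0.0213) in compound against deletion hearts, where 2.78% of genes were lower. No member reached q under 0.05 in its remaining pairs of groups, where 0.0472% (deletion against nontransgenic), 0.0239% (HRC variant against nontransgenic) and 0.168% (compound against HRC variant) of genes were higher and 0.0472%, 0.0537% and 0.221% lower. Whether the authors' model held a sex term is not given. Here, with no sex term, edgeR gave 1.34 and 0.95 for Cenpf and -2.03 for Ccnb2 in the same pairs. With the sex term, DESeq2 gave adjusted p-values of 0.0662 and 0.533 for Cenpf and 0.549 for Ccnb2.

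Markers of atrial muscle, macrophages and fibroblasts were lowest in the libraries where Cenpf was high. The 4 libraries with the lowest atrial sums, HRC variant replicate 3 and compound replicates 1 to 3 (926, 1080, 964 and 1410 CPM), had 47.6 to 63.1 CPM of Cenpf. HRC variant replicate 2, with the highest Cenpf, had an atrial sum of 4190 CPM, next in order, and HRC variant replicate 1, with low Cenpf, had 11000 CPM. The nontransgenic and deletion libraries had atrial sums of 4990 to 11100 CPM and at most 30.9 CPM of Cenpf. Of the 9 markers, Sln had 0.337 to 25.7 CPM in the 4 lowest libraries and 171 to 516 CPM in the others. Bmp10 was at 0 in compound replicate 3 and none of the other markers was at 0 in any library. The 5 libraries with high Cenpf were also the 5 lowest for the 14 macrophage markers (394 to 476 CPM, against 528 to 777 CPM in the others) and the 11 fibroblast markers (3120 to 4180 CPM, against 4300 to 7440 CPM). The part of these tissues and cells in the Cenpf level was not tested.

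**Figure D5:**
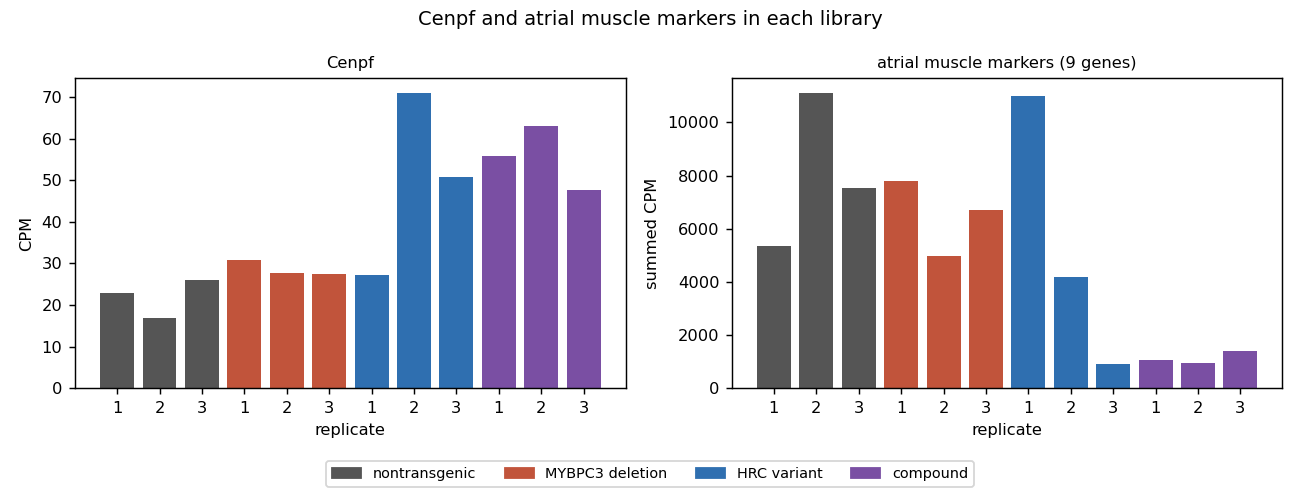
Cenpf in CPM (left) and the summed CPM of 9 atrial muscle markers (right) in each library, as bars that start at 0 and are coloured by group. The 5 libraries with Cenpf at 47.6 to 70.9 CPM, which are HRC variant replicates 2 and 3 and all compound libraries, are the 5 with the lowest atrial sums, 926 to 4190 CPM.

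The other genes of the cycle, taken from lists of known function, had medians nearer 0 than the mitotic members in the 3 comparisons with nontransgenic hearts. In compound against deletion and against HRC variant hearts the further mitotic genes had medians of -0.28 and -0.27, beyond the -0.22 and -0.24 of the mitotic members. Of 34 tested further mitotic genes, such as spindle checkpoint, condensin and kinetochore genes, 27 were positive in deletion and 27 in HRC variant hearts against nontransgenic ones, with medians of 0.41 and 0.32, and 21 in compound hearts, with a median of 0.15. Their interaction had a median of -0.51 with 5 of 34 positive. edgeR and DESeq2 called none of them. The centromeric histone Cenpa had 38.3, 28.8 and 21.0 CPM in nontransgenic and 37.8, 36.4 and 30.3 CPM in compound hearts. These groups overlapped, and the lowest value was that of the only nontransgenic female. Its fitted log2 fold change was 0.73 (SE 0.19; adjusted p = 0.536 by edgeR's quasi-likelihood test), and how this depends on the sex term was not tested. The condensin subunit Ncapd2 gave -0.40 (SE 0.13) with the deletion.

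The 22 tested genes of origin firing and replication had medians of 0.35, 0.08 and 0.09 in deletion, HRC variant and compound hearts against nontransgenic ones, with 16, 12 and 15 positive. Dut, which clears dUTP, gave 0.38 (SE 0.15) and Gmnn, the licensing inhibitor geminin, -0.38 (SE 0.15), both with the deletion. The 14 E2F and MuvB factors had medians of 0.01, -0.02 and -0.07, with Lin52, a MuvB subunit, at -0.44 (SE 0.17) and Tfdp2, an E2F partner, at -0.54 (SE 0.23) in HRC variant hearts. The 8 G1 cyclins and kinases had medians of 0.12, -0.04 and 0.05, with Myc at 0.64 (SE 0.36) with the deletion and Ccnd1, cyclin D1, at 0.34 (SE 0.19) with the HRC variant. None of these was called by either tool.

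The 13 tested inhibitors of the cycle had medians of 0.05, -0.09 and -0.03. Wee1, the kinase that holds CDK1 inactive, had 16.4, 24.6 and 31.7 CPM in nontransgenic and 12.5, 11.0 and 14.7 CPM in HRC variant hearts. These groups did not overlap, as in 3.76% of all genes in the lower direction. Its log2 fold change was -1.32 (SE 0.32; adjusted p = 0.596 by edgeR's quasi-likelihood test). Btg2, an antiproliferative gene, gave 0.95 (SE 0.27; adjusted p = 0.621 by edgeR's quasi-likelihood test) in compound against nontransgenic hearts, where the groups overlapped. In compound against HRC variant hearts DESeq2 called 0.311% of genes, among them the inhibitors Cdkn1a (p21) and Cdkn2b (p15), both lower. Both were chosen here after their values were seen, and edgeR called neither.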

How the data were processed

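Heart RNA in 12 libraries, 3 a group, was compared, with groups taken from the labels. The deposited table gives, per gene and library, estimated counts (unit: expected counts, 94.3% of them whole) and FPKM, and, per pair of groups, the authors' log2 fold changes and q-values. Per the submitters' processing notes, the build was GRCm38.p6 and the tools were HISAT, Bowtie2 and DESeq2. For their versions and roles, the counting and the use of strand, the sources used here give nothing.

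The deposited counts were rounded to whole numbers and tested with edgeR 4.0.16 in R 4.3.3 (quasi-likelihood, TMM scaling, group plus sex over all 12 libraries, 7 residual degrees of freedom), keeping 13849 of 17379 genes with filterByExpr at a minimum count of 10. p-values were adjusted by Benjamini-Hochberg over all tested genes, with a threshold of 0.05. CPM use TMM-scaled library sizes. Library totals were 15615182 to 20581197, and intervals of counting error take reads as independent. DESeq2 1.42.0, limma 3.58.1 (voom), other scaling and filtering, other sets of libraries, no sex term and a replicate block were alternatives. The scripts were tested on simulated data. Fits are named for the 5 members with the smallest p and for Mki67, Top2a, Pcna and Mcm2 in each pair of groups, for the 3 with the smallest p in the interaction, and for 2 genes of each pathway list. The members and lists were chosen with earlier results of these data known. No library was left out of the tests, and replicates of a group all differed by more than sampling noise.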

Additional observations from a re-analysis of the deposited data

How the results depend on the processing

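edgeR's quasi-likelihood test called 0 genes in every comparison, and limma-voom also called 0. With DESeq2 there were 76 (deletion against nontransgenic), 25 (HRC variant against nontransgenic), 38 (compound against nontransgenic), 6 (compound against deletion), 43 (compound against HRC variant) and 50 (interaction). With only the groups compared in the fit, 1, 15 and 57 genes were called in deletion against nontransgenic, compound against nontransgenic and compound against deletion hearts. Leaving out 1 library gave 0 to 8 genes for HRC variant against nontransgenic (8 without HRC variant replicate 1), 0 to 3 for compound against nontransgenic, 0 to 13 for compound against HRC variant (13 without HRC variant replicate 3) and 0 to 5 for the interaction. The cause was not tested.

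The replicate numbers did not pair the samples: of 18 pairs with the same number 5 had a correlation of deviations over 0.1 (-0.24 to 0.316), against -0.36 to 0.331 for the 36 other pairs, and 3 of 12 libraries correlated best with their own number. With the replicate block 1 gene was called in the interaction, the S-phase median of compound against nontransgenic hearts was -0.09, and Mki67 in compound against deletion hearts was -0.06.

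Mitotic medians among females only were 1.40 (deletion) and -1.73 (interaction). The HRC variant median was 0.16 with no sex term, and the compound median was 0.94 with only the groups compared. Leaving out 1 library moved the mitotic median over 0.20 to 1.15 (HRC variant), -0.14 to 0.92 (compound), -0.42 to 0.53 (compound against deletion) and -1.42 to -0.61 (interaction), and the S-phase median over -0.06 to 0.24 (deletion).

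Of 411 log2 fold changes of named members under other settings 402 kept their sign and side of the threshold and 8 changed sign. In compound against deletion hearts these were Mki67 (-0.30 with no sex term, -0.35 with only the groups compared, -0.35 among females only) and Pcna (-0.00 with no sex term). In compound against nontransgenic hearts with no sex term they were Cdk1 (-0.00), Mki67 (-0.09) and Top2a (-0.16). Leaving out 1 library changed the sign in 17 of 552. Mki67 ranged over -0.11 to 0.76 (deletion), -0.22 to 1.05 (HRC variant), -0.45 to 0.81 (compound) and -0.34 to 0.93 (compound against deletion). Top2a ranged over -0.14 to 0.81 (compound) and -0.31 to 0.64 (compound against deletion), and Mcm2 over -0.18 to 0.06 (deletion) and -0.01 to 0.31 (compound against HRC variant). With 29.4 counts per library at the median, mitotic members carry a counting error of 18.4%, which limits what could be detected.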
